A study of Homo sapiens with 4 samples.

Results

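The microRNAs (miRNAs) described here are the later-annotated ones that were detected in HEK293T cells: entries whose number lies between 1000 and 3999. They were chosen by their measured read count, which had to sum to at least 50 over the 4 libraries. Of 464 such numbered entries considered, 136 reached that sum, 175 had some reads but fewer, and 153 had no read in any library. The whole table held 2656 mature miRNAs. A further 15 entries of the range, from 11 stems, are not described. HEK293T is a human embryonic kidney line that carries the SV40 large T antigen. All libraries came from cells with a landing pad, meaning an engineered genomic site into which a transgene can be put. In 2 libraries (PGK replicates 1 and 2) the pad had the promoter of the phosphoglycerate kinase gene. In the other 2 libraries (CAG replicates 1 and 2) it had CAG, a synthetic promoter joining a cytomegalovirus enhancer to chicken beta-actin sequence. The series asked which miRNAs differ between these lines. The lines were monoclonal, so promoter and clone cannot be told apart. Whether the replicates of a line were grown separately is not stated in the labels, and p-values cover only the spread between these 4 libraries, which may be technical.

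miRNAs are short RNAs cut from hairpin precursors, first by Drosha with its partner DGCR8 in the nucleus and then by Dicer in the cytoplasm. One strand of the resulting duplex, from the 5p or the 3p arm of the hairpin, is loaded into an Argonaute protein, and bases 2 to 8 of that strand, the seed, pair with target messages. miRNA numbers follow the order of discovery, so that the abundant and conserved miRNAs mostly have low numbers. Many entries of the range described here came from deep sequencing, and their hairpins often lie in introns, exons, repeats or on the opposite strand of an older hairpin.

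A mature sequence was found in RefSeq (GRCh38.p14) for 126 of the 136 miRNAs. The first set shows the most abundant ones with a sequence, in which capitals mark the seed, read 5′ to 3′.
miR-1307-3p: aCUCGGCGuggcgucggucgug
miR-1180-3p: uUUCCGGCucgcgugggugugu
miR-1303: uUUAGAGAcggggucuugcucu
miR-3615: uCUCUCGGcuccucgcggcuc
miR-3158-3p: aAGGGCUUccucucugcaggac
miR-1271-5p: cUUGGCACcuagcaagcacuca
miR-1301-3p: uUGCAGCUgccugggagugacuuc
None of these has the seed of another, and miR-1271-5p is the only one of the 7 whose seed is shared with an abundant older miRNA, miR-96-5p, shown here for comparison.
miR-96-5p: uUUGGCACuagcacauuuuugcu

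The second set holds miRNAs that differed between the CAG and PGK libraries, again with the seed in capitals. Those higher in CAG come first.
miR-1266-5p: cCUCAGGGcuguagaacagggcu
miR-1243: aACUGGAUcaauuauaggagug
miR-3175: cGGGGAGAgaacgcagugacgu
miR-3180-5p: cUUCCAGAcgcuccgccccacgucg
miR-3938: aAUUCCCUuguagauaacccgg
miR-1299: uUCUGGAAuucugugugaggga
miR-3133: uAAAGAACucuuaaaacccaau
miR-1257: aGUGAAUGauggguucugacc
Those lower in CAG, beside miR-1180-3p above, follow.
miR-1287-5p: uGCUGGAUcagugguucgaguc
miR-1910-5p: cCAGUCCUgugccugccgccu
miR-2110: uUGGGGAAacggccgcugagug
No 2 of these 11 share a seed.

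The 126 sequences were 17 to 25 bases long with a median of 22. Their GC content ran from 12.5% to 83.3% with a median of 56.5%, against 47.6% for 379 miRNAs with lower numbers that reached the same read sum. A GC content of at least 60% was found in 34.9% of the later-annotated miRNAs and in 13.7% of the lower-numbered ones. Seeds were mostly their own: 87 of the 126 shared their seed with no other miRNA of the table that had a RefSeq sequence. Miss of a sharer without a sequence is possible, as miR-1343-3p is among the 87 but held 92.6% of its family. In all, 99 held all reads of the authors' seed family. Only 12 held under 50% of their family.

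The later-annotated miRNAs were a small share of all 4 libraries. The PGK libraries had 7927615 and 7331437 reads assigned to miRNAs. CAG replicate 1 was the deepest with 13780279 and CAG replicate 2 the shallowest with 2845945. The 136 miRNAs took 1.47% and 1.51% of the PGK reads and 1.20% and 1.31% of the CAG reads. Their median level was 7.96 CPM (reads relative to the library total, scaled by TMM, edgeR's correction for library composition), compared with 61.4 CPM for 431 lower-numbered miRNAs and 4.65 CPM for 123 with higher numbers. At 1000 CPM or more stood 2 miRNAs, 15 reached 100 CPM, 46 lay between 10 and 100 CPM, and 75 were under 10 CPM. The read sum that chose them fell at 51 for the 3 lowest included, miR-3065-3p, miR-3121-3p and miR-3163, and at 49, 48 and 48 for the 3 nearest excluded, miR-1914-3p, miR-3173-3p and miR-3677-5p. The deepest library, CAG replicate 1, weighed most in that sum. Levels of different miRNAs are shares of reads, into which each sequence's adapter ligation and amplification enter, so they are ordered here as read levels and not as molecule numbers.

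miR-1307-3p and miR-1180-3p led the range, and the top 2 took 56.3% of its reads. The hairpin of miR-1307 (chr10:103394253-103394401, minus strand, GRCh38) lies in ATP5MD, which encodes a subunit of the mitochondrial ATP synthase. GENCODE places 142 of the hairpin's 149 bases in a 5′ UTR exon of a transcript, and the hairpin in an intron of another. miR-1307-3p stood at 6351 and 7004 CPM in the PGK and 5347 and 4428 CPM in the CAG libraries, 30th in the whole table, and held 36.5% to 45.4% of the range's reads in each library. Both CAG libraries were below both PGK libraries, with a log2 difference of −0.45 (SE 0.16) and an edgeR adjusted p of 0.0992, which missed the threshold of 0.05. Without CAG replicate 1 the difference was −0.59 and passed it. miR-1180-3p, from an intron of B9D1 (chr17:19344506-19344574, minus strand), a gene of the ciliary transition zone, is given with the changed miRNAs.

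Next in level were miRNAs of varied origin, below 1000 CPM. miR-1303 (chr5:154685776-154685861, plus strand) stood at 786 and 843 CPM in PGK and 649 and 559 CPM in CAG. Its hairpin lies in no annotated protein-coding or long non-coding gene of the same strand. miR-3615, whose hairpin has 48 of 87 bases in a 5′ UTR exon of SLC9A3R1, a PDZ scaffold of membrane transporters (chr17:74748613-74748699, plus strand), stood at 545, 599, 744 and 667 CPM in the same order. These pairs did not overlap in either miRNA, and neither passed the test (log2 differences −0.43 and 0.30, adjusted p = 0.140 and 0.289). miR-3158-3p, in an intron of DPCD, stood at 455, 396, 561 and 551 CPM. It comes from 2 hairpins on opposite strands of the same place (chr10:101601417-101601497), so its reads cannot be assigned to a strand.

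miR-1271-5p, from an intron of ARL10 (chr5:176367946-176368031, plus strand), stood at 383 and 471 CPM in PGK and 410 and 520 CPM in CAG, which overlap. It held 46.9% of the reads of its seed family, at a level like that of miR-96-5p, an older miRNA of sensory cells and many tumours, at 467, 410, 571 and 343 CPM. Other members shared a seed with an older or higher-numbered miRNA in less even parts: miR-3616-5p held 22.0% of the family of miR-573 and miR-1293 25.6% of that of miR-4483. The smallest shares were under 1%: miR-3155a held 0.289% of the family of miR-484, miR-3184-5p 0.120% of that of miR-423-5p, miR-3139 0.744% of that of miR-708-5p, and miR-1271-3p 0.783% of that of miR-550a-5p. The miRNA that names a family here need not hold the rest of it. miR-708-5p had 5684 of its family's 11156 reads, and miR-550a-5p had 3965 of 9582.

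miR-1301-3p, from an intron of the DNA methyltransferase gene DNMT3A, stood at 311, 381, 310 and 215 CPM. Its log2 difference was −0.39 and passed the test only when CAG replicate 1 was left out, where it was −0.68. miR-1304-3p stood at 242, 220, 263 and 254 CPM and miR-1296-5p, from an intron of the histone demethylase family gene JMJD1C, at 240, 251, 190 and 219 CPM. miR-3909, from an intron of the endosomal trafficking gene TOM1, stood at 194, 224, 228 and 190 CPM with a log2 difference of 0.00. miR-1278, from an intron of CDC73, a subunit of the Paf1 complex, stood at 121, 127, 116 and 83.0 CPM. None of these 4 passed the test, and the top 15 by reads together held 86.8% of the range's reads.

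**Figure D1:**
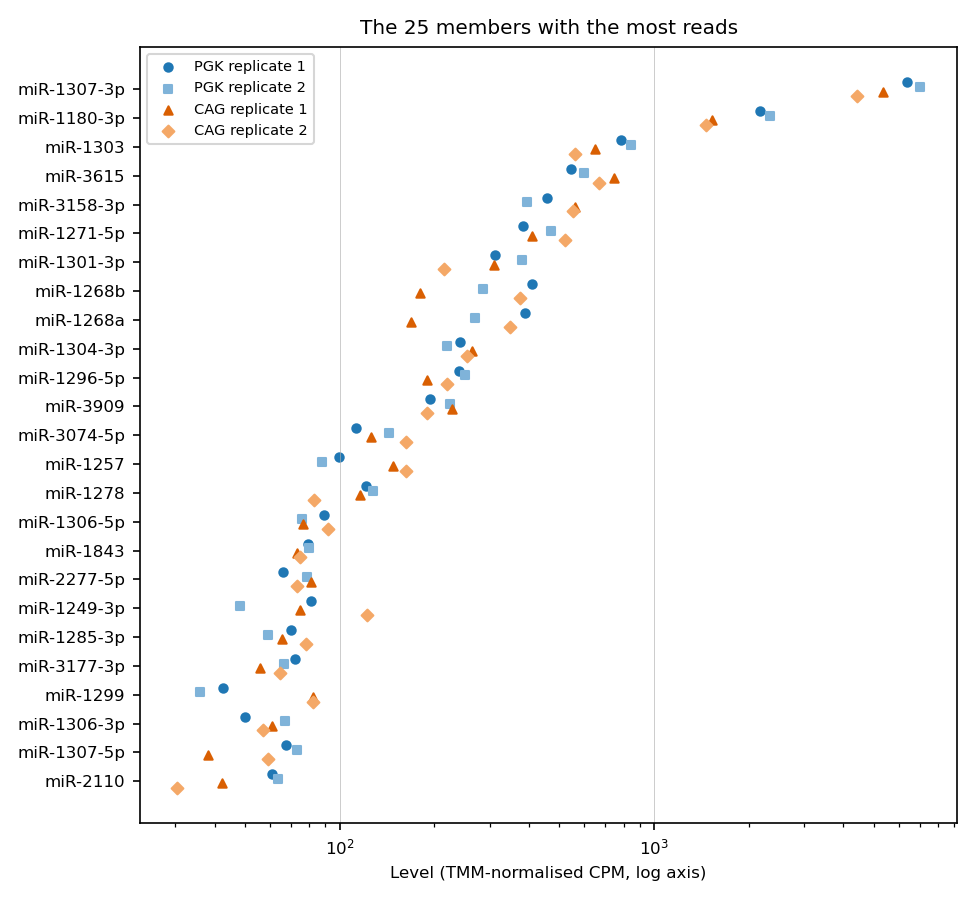
Levels of the 25 later-annotated miRNAs with the most reads, in TMM-normalised CPM on a log axis, 1 point per library. miR-1307-3p and miR-1180-3p stand apart at the top, and CAG replicate 1 stands below the other libraries for miR-1268a and miR-1268b.

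miR-1268a and miR-1268b could not be told apart in these data. The 18 bases of miR-1268a lie whole inside the 20 bases of miR-1268b, as their sequences with the seed in capitals show.
miR-1268a: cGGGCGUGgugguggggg
miR-1268b: cGGGCGUGguggugggggug
Their read ratio stayed between 1.05 and 1.07 in every library, and their reads summed to 17078 beside 17077 in the authors' seed family. The sources used here do not say how reads that match both were counted, so the pair is uncertain as 2 separate miRNAs. miR-1268b stood at 409 and 286 CPM in PGK and 180 and 374 CPM in CAG: the CAG replicates differed more than the groups did. The log2 difference was −0.34, was −0.94 and passed the test without CAG replicate 2, and was 0.11 without CAG replicate 1. miR-3180 is a like case, with 19 bases inside the 22 of miR-3180-3p and the same 38, 50, 107 and 22 reads in the 4 libraries.

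The CAG and PGK libraries differed in few of these miRNAs. By edgeR's quasi-likelihood test over all 773 miRNAs tested, 9 of 136 were higher and 4 were lower in CAG, in all 9.56% of the range. Of all 773, 14.2% were called, 8.15% higher and 6.08% lower, so the range's shares of 6.62% and 2.94% were no larger than the background. An unadjusted p under 0.05 was seen for 31 of the 136, beside 26.9% of all miRNAs. PGK and CAG values did not overlap for 75 of the 136, or 55.1%, beside 57.2% of all, and for each of the 13 called. The median log2 difference was 0.10, beside −0.00 over all tested, with quartiles of −0.39 and 0.47. Of the called, 7 were higher and 2 were lower by at least 2-fold, and 3 of the 7 passed the low-count filter through CAG alone. All 136 passed the low-count filter, 119 of them by 1.31 CPM or more in all 4 libraries. A further 10 passed it through CAG alone, 3 of which were called higher, 6 through PGK alone, and 1 through 1 library of each group. These calls needed both PGK libraries: without either one no member passed edgeR's threshold (18 and 20 had an unadjusted p under 0.05), and calls over the whole table fell from 110 to 19 and 16. Without CAG replicate 2, 11 were higher and 8 lower.

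**Figure D2:**
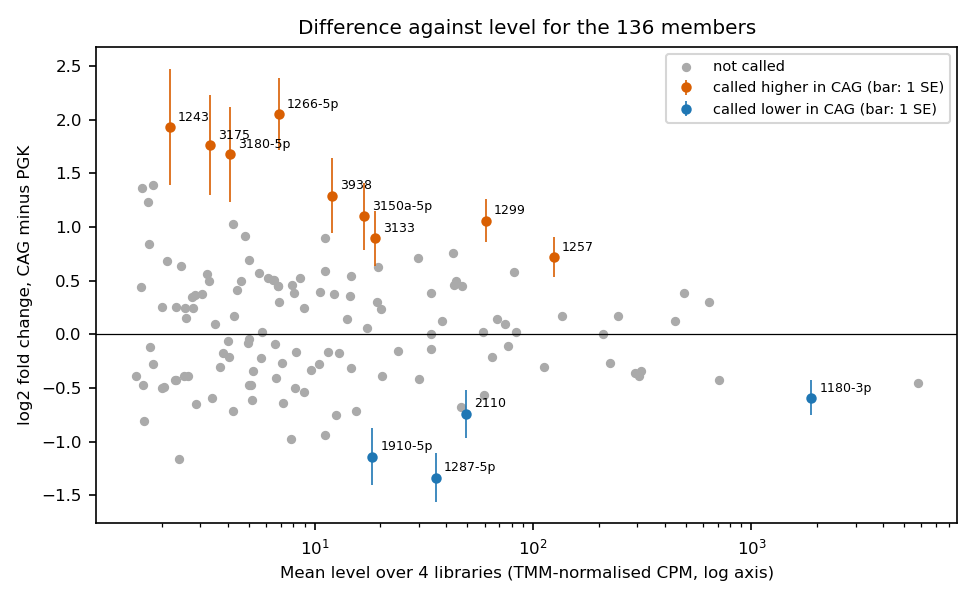
The log2 difference, CAG minus PGK, of each of the 136 miRNAs against its mean level in CPM (log axis), with 1 SE for the 13 called. The called miRNAs lie between under 10 CPM and over 1000 CPM, and the largest differences, in miR-1266-5p and miR-1243, lie under 10 CPM.

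miR-1266-5p rose the most among those called. Its hairpin (chr15:52277117-52277200, minus strand) lies in an intron of MYO5C, a class V myosin of epithelial cells. It stood at 3.003 and 2.51 CPM in PGK and at 12.8 and 9.08 CPM in CAG. The CAG mean of 10.9 ± 2.64 CPM (SD, n = 2) was 4.15-fold the PGK mean of 2.76 ± 0.349 CPM by the fit (log2 2.05, SE 0.34, edgeR adjusted p = 0.0025). It was called under 8 of 10 other settings, all but those that left out a PGK library.

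miR-1299 and miR-1257 were the best read of the higher miRNAs. Neither hairpin lies in an annotated protein-coding or long non-coding gene of the same strand. miR-1299 (chr9:40929010-40929092, minus strand) stood at 42.7 and 36.0 CPM in PGK and at 82.0 CPM in both CAG libraries, a 2.08-fold difference (log2 1.06, SE 0.20, adjusted p = 0.0059). Both pairs of replicates lay close together, and the call held under 8 of 10 other settings. miR-1257 (chr20:61953546-61953662, minus strand) stood at 99.4 and 88.1 CPM in PGK and at 147 and 163 CPM in CAG, 1.65-fold higher (log2 0.72, SE 0.19, adjusted p = 0.0288).

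The other higher miRNAs were read at lower levels. miR-3938, from an intron of ERC2, a presynaptic scaffold gene (chr3:55852492-55852594, minus strand), stood at 9.51 and 4.74 CPM in PGK and 20.04 and 13.6 CPM in CAG (log2 1.29, SE 0.35, adjusted p = 0.0365). miR-3133, from an intron of FARP2, a guanine nucleotide exchange factor (chr2:241477905-241477982, plus strand), stood at 11.8 and 14.4 against 22.4 and 26.9 CPM (log2 0.89, SE 0.26, adjusted p = 0.0430). It was called under 3 of 10 other settings. miR-3150a-5p, from chromosome 8, stood at 7.51 and 13.9 against 22.9 and 22.7 CPM (log2 1.10, SE 0.31, adjusted p = 0.0398). Without CAG replicate 1 none of these 3 passed (0.92, 1.05 and 1.10), and without CAG replicate 2 miR-3133 did not (0.79).

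The last 3 higher calls rested on few reads and on miRNAs that passed the filter through CAG alone. miR-1243, from an intron of the membrane adaptor gene ANK2 (chr4:113106863-113106955, plus strand), had 10 and 3 reads in PGK and 40 and 12 in CAG, or 1.25 and 0.418 against 3.11 and 3.89 CPM (log2 1.93, SE 0.54, adjusted p = 0.0382). miR-3175, from the chromatin remodeller gene CHD2 with 3 bases of its hairpin in a 5′ UTR exon (chr15:92904399-92904475, plus strand), stood at 1.75 and 0.976 against 4.04 and 6.48 CPM (log2 1.76, SE 0.47, adjusted p = 0.0300). miR-3180-5p stood at 2.75 and 0.976 against 5.82 and 6.81 CPM (log2 1.68, SE 0.44, adjusted p = 0.0300). Its 3 hairpins lie on chromosome 16 (chr16:14911220-14911313, chr16:16309879-16309966 and chr16:18402178-18402271), each within 10 kb of a copy of miR-3179, which stood at 8.26, 10.0, 15.2 and 11.0 CPM and did not pass. All 3 lost the call under DESeq2 and under the replicate block.

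miR-1287-5p fell the most. GENCODE places 76 of the 90 bases of its hairpin (chr10:98395218-98395307, minus strand) in a coding exon of a transcript of PYROXD2, an oxidoreductase domain gene. It stood at 48.9 and 54.4 CPM in PGK and at 21.9 and 18.2 CPM in CAG. The mean went from 51.7 ± 3.86 to 20.03 ± 2.65 CPM (SD, n = 2 each), and the log2 level fell by 1.33 (SE 0.22, edgeR adjusted p = 0.0028). The call held under 8 of 10 other settings.

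The other lower miRNAs also came from protein-coding hosts. miR-1910-5p, from an intron of C16orf74 (chr16:85741621-85741700, minus strand), stood at 22.3 and 28.4 CPM in PGK and 11.7 and 11.0 CPM in CAG, and fell by 1.14 on the log2 scale (SE 0.26, adjusted p = 0.0168). miR-2110, whose hairpin is wholly within a 5′ UTR exon of CCDC186 (75 of 75 bases, chr10:114174105-114174179, minus strand), a gene of dense-core vesicle formation, stood at 61.1 and 63.6 against 42.3 and 30.5 CPM, and fell by 0.74 (SE 0.22, adjusted p = 0.0492). miR-1180-3p, the second most abundant of the range, stood at 2177 and 2335 CPM in PGK and 1529 and 1463 CPM in CAG. Its replicates lay close (2256 ± 112 and 1496 ± 47.0 CPM, SD, n = 2), and it fell by 0.59 (SE 0.16, adjusted p = 0.0365). Without CAG replicate 2 the call of miR-2110 was lost (−0.55), and without CAG replicate 1 that of miR-1910-5p (−1.19). Of the top 15 by reads only miR-1180-3p and miR-1257 were called.

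**Figure D3:**
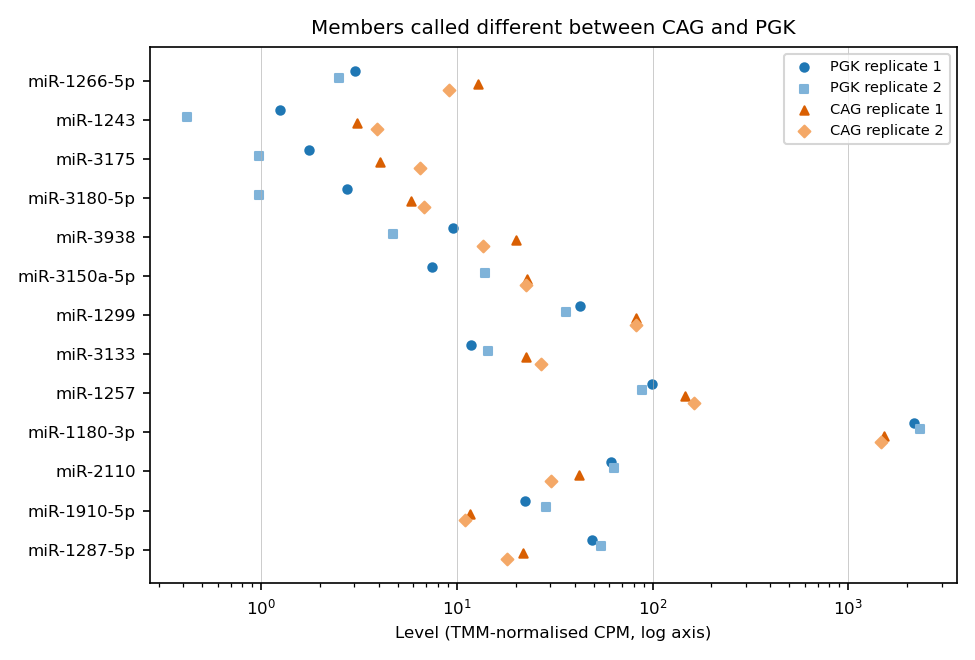
Levels of the 13 called miRNAs in TMM-normalised CPM on a log axis, 1 point per library. In each of them the CAG points lie to 1 side of the PGK points, and the PGK replicates are most spread in miR-1243 and miR-3180-5p.

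Several miRNAs fell just short of the threshold. miR-3065-5p stood at 10.0 and 11.0 CPM in PGK and 5.67 and 4.54 CPM in CAG (log2 −0.97, adjusted p = 0.0509), and miR-1250-5p at 6.01 and 9.62 against 14.4 and 14.6 CPM (log2 0.90, adjusted p = 0.0771). The 2 hairpins lie within 10 kb on chromosome 17, miR-1250 in an intron of the kinase gene AATK (chr17:81133196-81133308, minus strand) and miR-3065 on its opposite strand (chr17:81125877-81125955, plus strand). Their values thus lay in opposite directions, and neither passed the test. miR-3115, from an intron of the histone demethylase gene KDM1A, stood at −0.94 (adjusted p = 0.0560) and miR-3200-3p, from OSBP2, at 0.76 (adjusted p = 0.0685). Among miRNAs not called, log2 differences ran from −1.16 in miR-1271-3p to 1.39 in miR-3135a.

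Every one of the 136 was matched by name to a hairpin, 129 hairpins in all. Positions were those of GENCODE release 29, except that of miR-1843, which came from RefSeq. On the same strand, 85 hairpins lay in a protein-coding host, 73 of them in introns only and 12 with bases in an exon. Another 9 lay in a long non-coding gene. The other 35 lay in no gene of either kind on their strand, 16 of them opposite to such a gene. Other kinds of gene, such as pseudogenes, were not counted as hosts. Among the 124 miRNAs with 1 hairpin, the 17 from hairpins touching an exon of a protein-coding host had a median level of 35.8 CPM, above the 7.90 CPM of 73 from introns, the 9.28 CPM of 8 with a long non-coding host and the 7.48 CPM of 26 without a host. miR-1307-3p, whose hairpin is exonic in some transcripts only, and miR-3615 are in the exonic group, in which both arms of 1 hairpin count as 2. Calls were 1 higher and 2 lower for exonic hairpins, and 4 and 2 for intronic ones. Hairpins with a long non-coding host had none, and those without a host had 3 higher and none lower. Of all 773 tested, 8.15% were higher and 6.08% lower. The 1 higher exonic call, miR-3175, has only 3 bases of its hairpin in an exon. The hairpin of miR-1292, also in the exonic group, has 1. None of these differences between places was tested.

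Some hosts, picked after the values were seen, belong to the miRNA machinery itself. miR-1306 is cut from a coding exon of DGCR8, the partner of Drosha (85 of 85 bases, chr22:20086058-20086142, plus strand). Its 5p arm stood at 89.1, 75.7, 76.3 and 91.7 CPM and its 3p arm at 49.9, 67.1, 60.9 and 57.0 CPM, with log2 differences of 0.02 each. miR-3173-5p, from an intron of DICER1, stood at 16.4, 34.0, 21.3 and 24.6 CPM. miR-3064-5p, from an intron of the helicase gene DDX5, stood at 2.88, 5.58, 4.12 and 2.59 CPM. In each of these 4 the PGK and CAG values overlapped.

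The lists of miRNAs by origin were chosen with earlier results of these data known. They held few called members, and no list was tested as a group. Of 13 stems listed as mirtrons, which are released by splicing of a short intron in place of Drosha, 4 gave 6 of the miRNAs described (miR-1224-5p, miR-1229-3p and both arms of miR-3605 and miR-3940). None was called, and log2 differences ran from −0.61 to 0.37 with a median of −0.13. By the annotation only the hairpins of miR-1224 and miR-1229 fill an intron to within 5 bases at each end, in VWA5B2 and MGAT4B. Repeat-derived stems gave 12 miRNAs, none called, between −0.43 and 0.71 with a median of 0.20. They are miR-1303, miR-1268a, miR-1268b, miR-1255a, miR-1255b-5p, miR-1273c and both arms of miR-1304, miR-1285 and miR-1273h. miR-1303, miR-1268a, miR-1268b and miR-1304-3p are 4 of the 15 most read. X-linked stems gave 4, both arms of miR-1277, miR-1468-5p and miR-1298-5p, none called, with a median of 0.44. miR-1468-5p had the largest of these differences, 1.02 with an adjusted p of 0.0900. The exon-hosted list (miR-3615, both arms of miR-1306 and miR-1908-5p) had no call and a median of 0.02. The list of abundant miRNAs from protein-coding genes gave 13, of which 3 fell (miR-1180-3p, miR-1287-5p and miR-2110) and none rose, beside 6.08% lower and 8.15% higher of all 773 tested. Its median was −0.45 beside −0.00 over all. The lists of the 14q32 region and of stems that overlap snoRNA or rRNA genes held no miRNA of the range at this read level. One other member, miR-1843 (79.6, 79.8, 72.9 and 74.5 CPM), comes from a hairpin in an intron of COP1 that overlaps the small Cajal body RNA gene SCARNA3.

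Hairpins opposite to an older one gave mature miRNAs that are almost exact complements of the older arm. miR-3074-5p, whose hairpin overlaps that of miR-24-1 on the other strand of chromosome 9 (chr9:95086014-95086094, minus strand for miR-3074), is complementary to miR-24-3p over 20 bases. The sequences are shown with the seed in capitals.
miR-3074-5p: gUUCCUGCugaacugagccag
miR-24-3p: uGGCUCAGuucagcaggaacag
miR-3074-5p had 4050 reads beside 40986 of miR-24-3p, and stood at 113 and 143 CPM in PGK and 126 and 163 CPM in CAG (log2 0.17, not called). The name of miR-24-3p holds no hairpin number, so its reads may not all come from this place. The other arm, miR-3074-3p, had 215 reads beside 151 of miR-24-1-5p, its complement over 19 bases. At other places, too, an arm of the later-annotated strand had more reads than its complement. miR-3065-5p, complementary to miR-338-3p over 22 bases, had 246 reads beside 11. The other arms of that place were the reverse, with 51 reads of miR-3065-3p beside 346 of miR-338-5p. miR-3120-3p, complementary to miR-214-5p over 21 bases, had 227 beside 2, while miR-214-3p had 0 reads. At 95% confidence a count of 0 allows a mean of up to 3 if reads are independent, which they may not be. In contrast, miR-3184-5p had 106 reads beside 354258 of its complement miR-423-3p. The 5 miRNAs of the list of such stems had log2 differences from −0.97 to 0.31 with a median of −0.17, and none was called.

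Within a hairpin, most stems with both arms read kept the same leading arm in all 4 libraries. By name, 43 of the 136 were 5p arms, 39 were 3p arms and 54 had no arm. In 19 stems both arms reached the read sum: the 5p arm led in 8 and the 3p arm in 11, with the same leader in all 4 libraries for 17. The leading arm held at least 80% in 12. The 3p arm of miR-1307 held 98.9%, 99.0%, 99.3% and 98.7% of the stem's reads, in the order PGK 1, PGK 2, CAG 1 and CAG 2. The 5p arm of miR-1271 held 99.2% to 99.8% and that of miR-3074 94.2% to 95.7%. miR-1304 was led by its 3p arm with 92.6%, 89.5%, 88.4% and 86.5%, and miR-1285 by its 3p arm with 73.6% to 80.5%. The 5p arm held 81.5% to 91.8% in miR-1292 and 87.7% to 91.1% in miR-1277.

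The arms were less uneven in some stems. The 5p arm held 64.1%, 53.0%, 55.6% and 61.7% in miR-1306, so that it led in every library. In miR-3157 it held 43.5%, 37.8%, 36.6% and 31.1%, and the 3p arm led throughout. The leader changed in CAG replicate 2 alone in miR-3127, where the 5p arm held 43.6%, 39.6%, 39.0% and 56.5%, and in miR-3605, where it held 40.8%, 30.6%, 33.3% and 54.2%. These changes rest on few reads. CAG replicate 2, the shallowest library, had 35 reads of miR-3127-5p and 27 of miR-3127-3p. The arms of miR-3605 had 221 reads in all libraries together. The test of the arm ratio between CAG and PGK, run with edgeR, called none of the 25 stems with a miRNA of the range and both arms tested, and none of 178 stems of the whole table (0.0%). An unadjusted p under 0.05 was found for 2 of the 25, miR-3130 (log2 change of the 5p to 3p ratio −1.38, SE 0.69) and miR-3180 (1.20, SE 0.59), both with an adjusted p of 0.649, beside 6.74% of all 178. Both arms of miR-3130 come from 2 hairpins on opposite strands of the same place. The reads of miR-3180-3p equal those of the entry miR-3180, which comes from other hairpins. Neither ratio can thus be assigned to 1 hairpin.

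**Figure D4:**
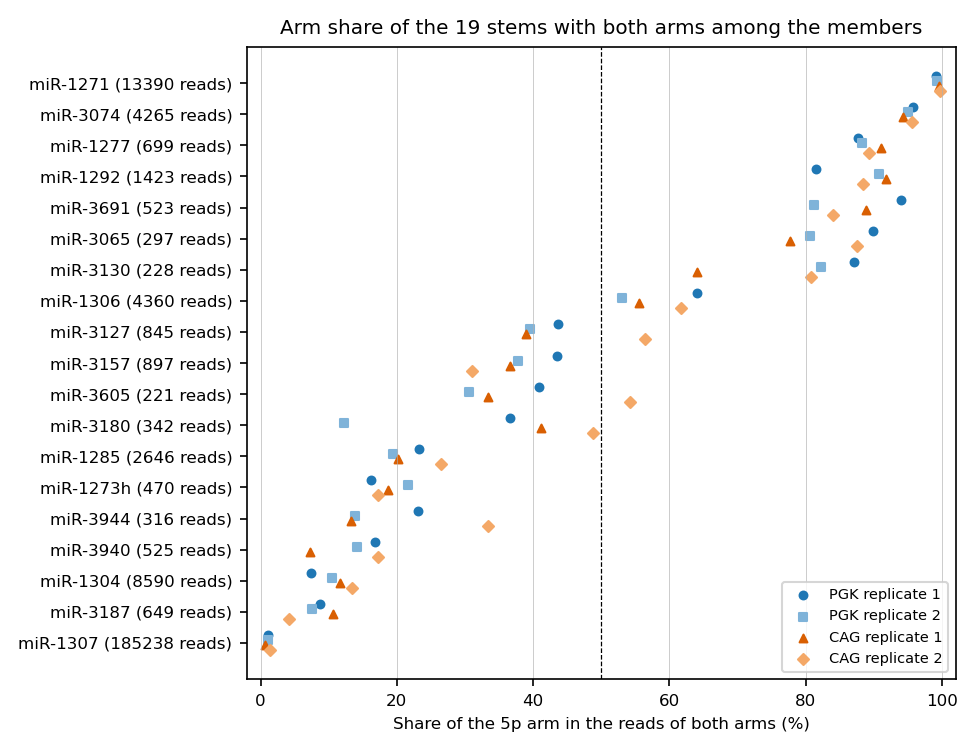
Share of the 5p arm in the reads of both arms (%), 1 point per library, for the 19 stems with both arms among the miRNAs described. Most stems keep to 1 side of the dashed line at equal shares, and the points of the 4 libraries lie close together in the well read stems.

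Replicates differed more among the miRNAs read at low levels. The SD of the log2 difference between replicates was 0.68 in PGK and 0.60 in CAG for the 75 miRNAs under 10 CPM, and 0.42 and 0.43 for the 61 at 10 CPM or more. The median SE was 0.38 for the 75 and 0.25 for the 61. The same difference thus had a wider error in the low miRNAs, which make up most of the range. The test called 4 of the 75 and 9 of the 61, beside 14.2% of all 773 miRNAs tested at any level. Whether level accounts for these numbers was not tested.

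Some GC-rich miRNAs were lower in CAG replicate 1 than in CAG replicate 2, and others were higher. miR-1275 stood at 60.1 and 52.3 CPM in PGK but at 22.4 and 52.8 CPM in CAG, and miR-1249-3p at 81.2, 48.1, 75.02 and 122 CPM. The other way went miR-3127-3p (68.2% GC), at 16.3 and 8.75 CPM in CAG replicates 1 and 2. So did miR-1292-5p (68.0% GC), at 47.1 and 32.1 CPM, and miR-1307-3p. Over the 57 miRNAs with a sequence at 10 CPM or more, GC content and the log2 difference CAG 2 minus CAG 1 had a Pearson r of 0.34 and a Spearman rho of 0.25. The same for PGK 1 minus PGK 2 was 0.00 and −0.09. Over all 126 with a sequence, r and rho were 0.20 and 0.18 for CAG and 0.08 and 0.05 for PGK. These are descriptions across miRNAs of the same 4 libraries, which are not independent points. The part of this in the comparison of CAG with PGK was not tested.

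**Figure D5:**
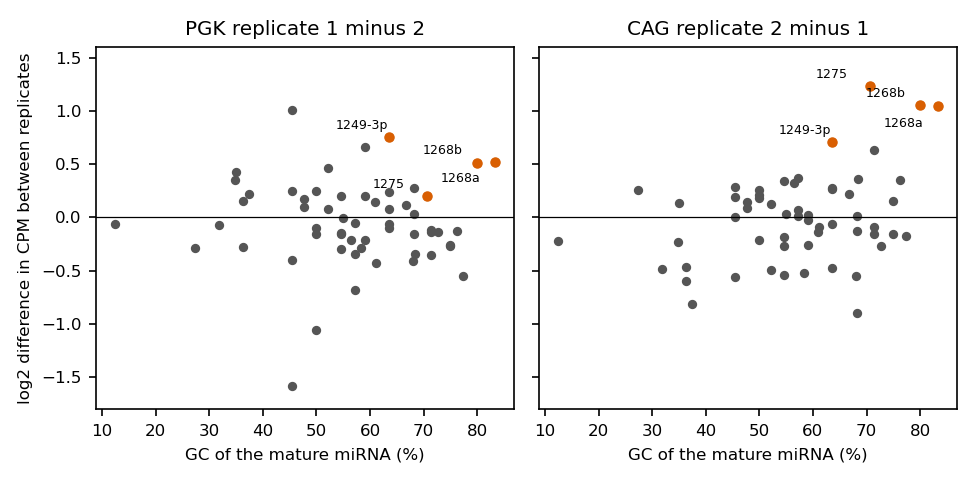
The log2 difference in CPM between replicates against the GC content (%) of 57 mature miRNAs at 10 CPM or more, for the PGK pair (left) and the CAG pair (right). miR-1275, miR-1268a, miR-1268b and miR-1249-3p, marked in orange, stand at the top of the CAG panel. Other GC-rich miRNAs, such as miR-3127-3p, lie below the line of no difference there.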

How the data were processed

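Small RNA was sequenced in 4 HEK293T libraries, 2 per group, with groups and replicate numbers taken from the titles. Library preparation used the NEBNext Small RNA kit, per the labels' protocols. The authors deposited whole-number counts per mature miRNA and per seed family; for the trimming, aligner, genome build and rule for reads that fit several miRNAs, nothing is given in the sources used here. The miRNAs and lists described were chosen with earlier results of these data known.

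The main test was edgeR 4.0.16 in R 4.3.3 (robust quasi-likelihood) on the deposited counts with TMM scaling after filterByExpr by group (at least 10 counts, total at least 15). Group was the only term, and log2 differences are CAG minus PGK. Two-sided p-values were adjusted by Benjamini-Hochberg over all 773 miRNAs tested, with a threshold of 0.05. The SE was derived from the fitted difference and its F statistic. Arm shares were tested on the 5p and 3p counts of each library, with library and arm in the model, over 178 stems. The biological coefficient of variation was 0.180. Depth ranged from 2845945 to 13780279 counts, so 1 read is worth most in CAG replicate 2. Reads without molecular identifiers are not independent molecules.

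Named miRNAs were the 15 with the most reads, all called ones, the 10 best read stems with both arms, the members of lists, those nearest the read minimum, and hairpins within 10 kb of one another; others are said to be picked after their values were seen, or are near the threshold, share a seed or complement, or have a GC-rich sequence, and were also chosen after seeing values. Hairpins were matched by name to GENCODE release 29 (GRCh38), which may not be the authors' build. The hairpin of miR-1843 was placed by RefSeq. Sequences come from RefSeq (GRCh38.p14). Both fits were tested on simulated data. Alternatives were RLE and upper-quartile scaling, no filter, DESeq2 1.42.0, limma-voom (limma 3.58.1), a block for the replicate number, omission of each library, a read minimum of 200 and, for arms, a mean of 5 CPM in both arms.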

Additional observations from a re-analysis of the deposited data

How the results depend on the processing

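The 13 called miRNAs kept their direction under all 10 alternative settings, but the calls were lost in 50 of 130 cases: 13 each without PGK replicate 1 or 2, 8 with the replicate block, 6 with DESeq2, 4 without CAG replicate 1, 3 without the filter, 2 without CAG replicate 2, 1 with upper-quartile scaling and none with RLE or limma-voom. The 9 higher calls became 3 with DESeq2, 3 with the replicate block and 0 to 11 when a library was left out. The 4 lower calls became 2 without the filter, 2 with the block and 0 to 8 when a library was left out. The lone library left in a group was then assumed to vary like the others. No shared source is stated for same-numbered libraries of the 2 groups. Their deviations correlated at −0.01 over 773 miRNAs, which cannot decide whether they are paired, as a batch may touch only some miRNAs. Arm ratios gave 0 calls under each of the 7 alternatives, the block included.

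Among well read miRNAs and stems not called, some differences changed sign. miR-3909, at 0.00, was −0.018 with RLE, −0.0043 with upper-quartile scaling, −0.041 with DESeq2, and −0.13 to 0.13 when a library was left out. On leaving out a library, miR-1271-5p ran from −0.053 to 0.29, miR-1268b from −0.94 to 0.11, miR-1268a from −0.96 to 0.088 and miR-3074-5p from −0.014 to 0.36. Log2 changes of the 5p to 3p ratio ran from −0.56 to 0.34 for miR-1307, −0.34 to 0.32 for miR-1306, −0.34 to 0.079 for miR-3074, −0.13 to 0.39 for miR-1285, −0.0065 to 1.16 for miR-1292 and −0.16 to 0.86 for miR-3127. The cause was not tested. Under 10 CPM, where 75 of the 136 miRNAs lie, the median SE was 0.38. There 4 were called, beside 14.2% of all 773 tested at any level.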
